A study of Apis mellifera with 25 samples.

Results

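The reads of both parents were compared in 7 adult worker honey bees (Apis mellifera) of 1 cross, those whose library titles begin with 882, out of 25 bees in the series. The libraries were chosen by that number, and all 7 that carry it were used. RNA from a single bee went into each library, from the abdomen without its gut and with fat body and ovaries attached. Per the labels, the bees came from crosses made in both directions between Africanized and European bees. All had lived in colonies without a queen for about 18 days and were older than that. Dissection had sorted them into 3 bees with active ovaries (active bees 1 to 3) and 4 with inactive ovaries (inactive bees 1 to 4). No treatment other than the lack of a queen is given. The labels do not say what the number 882 marks or which lineage was the father, so in a single cross the parent, the lineage and the individual parental genome cannot be told apart.

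A honey bee drone is haploid and gives all his daughters the same genome, while a queen is diploid and gives each daughter 1 of her alleles at a locus. Sisters of a single drone therefore share the paternal allele everywhere and may differ in the maternal one. Workers normally do not reproduce, but in her absence the ovaries of some become active, and their eggs, which are not fertilised, develop into drones. Kinship theory, which the study's title names, concerns genes whose expression depends on the parent an allele came from. The bee abdomen is rich in fat body, a tissue for storage, metabolism and yolk protein synthesis. Fewer cells of a type and less RNA per cell cannot be told apart in such tissue.

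For each single-nucleotide position that tells parental genomes apart, each bee has a count labelled D and another labelled Q in the deposited tables. D was read as the drone father and Q as the queen mother, a reading that neither labels nor headers state. Over both tables, 66858 entries lay in genes (an entry is a position listed for a gene). D equalled Q in every bee of the cross at 25759 of them (38.5%), and these were dropped. Of the dropped entries, 11572 had at least 10 reads in 2 or more bees, with a median of 118 reads, and another 3104 had no reads. Just inside the rule were 9015 kept entries that differed by 1 read in 1 bee. The 41099 kept entries fell in 4345 gene identifiers, of 5333 with an entry, and their counts were summed per gene, bee and parent. Many kept entries still had nearly equal counts. Of 24187 with at least 10 reads in 2 bees, 11797 (48.8%) differed by more than a lower limit (a chi-square sum of the differences above its lower 0.01 tail), and are called differing positions here. By counting error alone, a share of about 0.01 would miss that limit, so many counts were more alike than counting error gives. The reason was not tested. Sums over all kept entries therefore pull the ratio of a gene towards equality. Differing positions were picked by the counts under test, so results at them are no separate support. Genes are given by the identifiers of the files, which pair none of them with a name.

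Libraries held between 11.5 and 34.7 M gene counts (M, 1000000 counts), the least in active bee 2 and the most in active bee 3. No pair of libraries within a status had like counts, with a mean chi-square per gene of at least 99.7. Inactive bee 3 stood apart from the other bees in its alleles. It had almost no paternal reads (a D share of at most 5%) in 17 genes that were balanced in at least 3 other bees. Every other bee had 0 to 2 such genes. GB42219, among the 17, is set apart below. Counts below are given with it, and without it where that matters.

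Paternal reads were slightly more frequent than maternal reads in most bees. Over kept positions, each counted once, the D share was 50.8%, 51.4% and 51.3% in active bees 1 to 3. It was 52.4%, 52.6%, 49.6% and 50.9% in inactive bees 1 to 4. Only inactive bee 3 lay below 50%, and the active bees lay within the range of the inactive ones. The mean was 51.3% ± 1.04 (SD, n = 7; exact sign-flip test against 50%, two-sided p = 0.03125, where the smallest possible p is 0.015625). Without inactive bee 3 it was 51.6% ± 0.769 (SD, n = 6; exact sign-flip p = 0.03125). That p is the smallest possible for 6 bees. Leaving out the only bee below 50% fixed it, so it adds no support. Active and inactive bees did not differ beyond their spread, with 51.2% ± 0.33 (SD, n = 3) against 51.4% ± 1.44 (SD, n = 4; exact permutation test, two-sided p = 0.914, smallest possible p 0.0571). At differing positions alone the mean share was 53.2% ± 2.66 (SD, n = 7), from 49.0% in inactive bee 3 to 56.5% in inactive bees 1 and 2. The share of the median gene was 50.1% ± 0.126 (SD, n = 7; exact sign-flip test, p = 0.25). By that measure 3 of 7 bees lay above 50%, and the others lay at 50% rather than below it. A sign flip does not change a bee at 50%, so 0.25 was the smallest possible p. Missing the threshold was thus fixed in advance, and no conclusion is drawn from it.

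**Figure D1:**
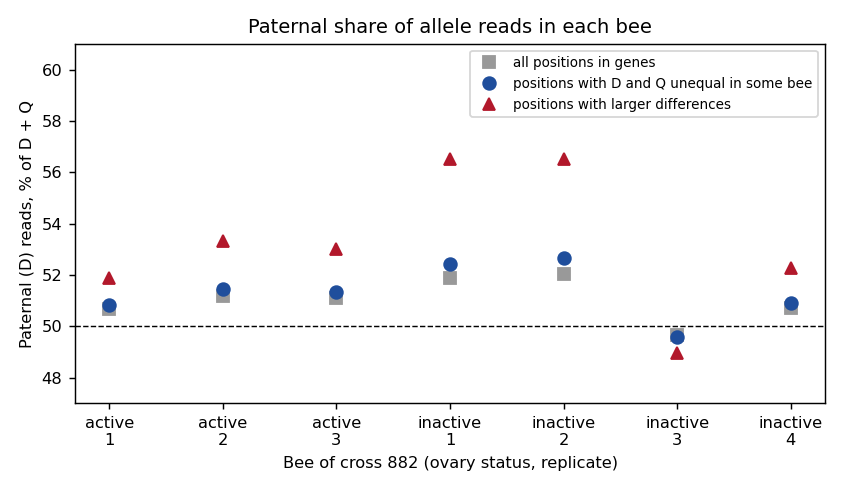
Paternal (D) reads as a percentage of all D and Q reads, one column of points for each of the 7 bees; squares show every position in genes, circles the kept positions, triangles the differing positions, and the dashed line 50%. 6 of 7 bees lie above the line at kept positions, and inactive bee 3 lies below it with all 3 kinds of positions.

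Of 2582 genes that had 10 or more reads in 5 or more bees, 230 (8.91%) had unequal parental reads by edgeR's quasi-likelihood test, in which every bee was its own block (adjusted p under 0.05). Paternal calls numbered 153 (5.93% of tested genes) and maternal calls 77 (2.98%). Paternal calls thus made up 66.5% of all calls (95% interval by Clopper-Pearson, exact, 60.0% to 72.6%, covering counting error, while genes depend on each other). This lean depended on how D was scaled against Q. Bees' D and Q columns shared 1 library size here. When the columns were centred by TMM scaling, the median log2 ratio of tested genes moved from 0.02 to -0.08, and the calls became 120 paternal and 138 maternal (46.5% paternal). With DESeq2 size factors it moved to -0.09, with 143 paternal and 345 maternal calls (29.3% paternal). TMM scaling kept 117 of the 153 paternal and all 77 maternal calls, and 3 paternal calls turned to the maternal side. Without inactive bee 3 there were 150 paternal and 62 maternal calls, and 166 calls were shared, 72.2% of the calls with it and 78.3% of those without. Active bee 3, the deepest library, moved the count most. Without it, 86 genes were called paternal and 50 maternal.

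Most genes were close to balance. Between 45% and 55% D reads were found in 1778 tested genes (68.9%), and 2253 (87.3%) had a fitted ratio under 2-fold. These sums include the many entries with nearly equal counts, so they do not measure allelic balance alone. Among paternal calls 85 were at least 2-fold, 53 at least 4-fold and 31 at least 8-fold, with a median log2 ratio of 1.20. Among maternal calls the numbers were 50, 25 and 11, with a median log2 ratio of -1.46. Small ratios were called too where the bees were alike, down to a log2 ratio of 0.05 in size, and 26 calls had a D share between 45% and 55%. Nearly equal D and Q counts also leave little spread between bees, so such small ratios are weak evidence of bias. How many calls this touches was not tested. All 7 bees lay on the called side of 50% in 139 of 153 paternal and 68 of 77 maternal calls. Another 14 paternal and 8 maternal calls had 6 of 7 bees there. The counts being tested chose these genes, so their one-sidedness is a description.

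**Figure D2:**
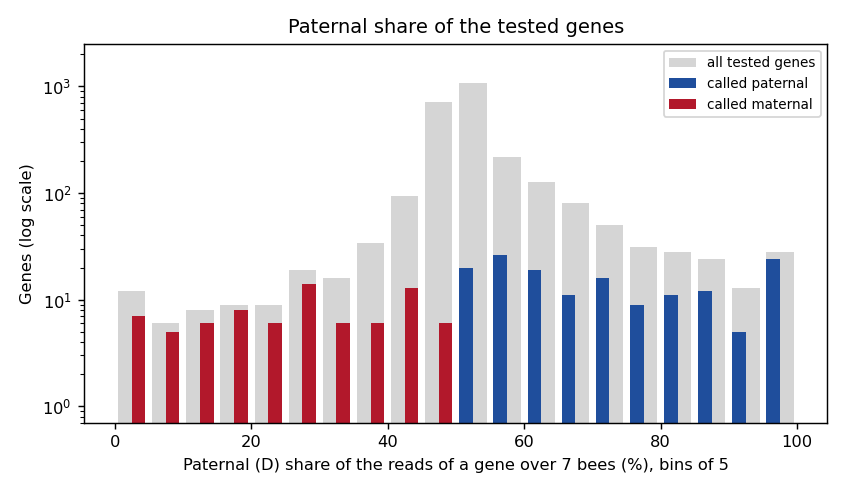
Number of genes (log scale) by the paternal share of their reads summed over the 7 bees, in bins of 5 percentage points; grey bars show all 2582 tested genes, blue bars the 153 paternal calls and red bars the 77 maternal calls. Most genes lie in the bins beside 50%, and calls reach from near balance to the reads of almost a single parent on both sides.

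A few genes had the reads of almost a single parent in every bee. With reads summed over the 7 bees, 24 paternal calls had less than 5% maternal reads and 7 maternal calls less than 5% paternal reads. A single bee may lie above 5% in such a gene. The largest paternal ratio was that of GB41954, with 5 positions from 190702 to 190766 on scaffold Group6.30. Its paternal reads were 44, 199 and 800 in active bees 1 to 3 and 90, 248, 479 and 49 in inactive bees 1 to 4. A single maternal read, in active bee 3, was counted among its 1910 reads (edgeR adjusted p = 4.84e-06). GB41933 (GroupUn179, 19394 to 19816, 15 positions) had 260, 317 and 344 paternal reads in the active and 165, 287, 50 and 176 in the inactive bees. It had 1 maternal read as well, in active bee 1 (edgeR adjusted p = 2.53e-05). Every bee thus showed the same parent in both genes. Each gene missed the threshold when the bee with its only maternal read was left out (edgeR adjusted p = 0.209 for GB41954 and 0.159 for GB41933). At differing positions alone GB41933 had no maternal read and passed it (edgeR adjusted p = 0.0234). The tested counts picked those positions, and the pick left out position 19394 with its only maternal read. That pass is therefore no separate support.

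On the maternal side the leading genes kept a trace of paternal reads. GB44589 (Group5.14, 788725 to 789255, 3 positions) had 44, 34 and 154 maternal reads in the active and 58, 75, 95 and 102 in the inactive bees. Its paternal reads were 0, 0 and 2 in the active and 0, 0, 3 and 2 in the inactive bees, which makes 0.895% ± 1.23 paternal on average (SD, n = 7; adjusted p = 0.000316, edgeR). Nearly all of them (563 of 569) came from 1 position, 789255, and the 6 reads at the other positions were all paternal. GB52220 (GroupUn7, 110336 to 110683) had more reads, between 499 and 1793 in a bee. Its D share was 1.17%, 0.99% and 2.18% in the active and 2.40%, 2.20%, 0.90% and 1.47% in the inactive bees (mean 1.62% ± 0.633, SD, n = 7; edgeR adjusted p = 2.53e-05). All 14 positions of GB52220 were differing positions, with D shares from 0% to 8.32%.

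Another 7 tested genes had no read at all of a parent in any bee, 4 without maternal and 3 without paternal reads. The edgeR test called none of these (adjusted p from 0.155 to 0.225, all at an unadjusted p under 0.05), while DESeq2 and limma called all 7. The cause of this difference between the tools was not tested. GB52653, with the most reads of the 7 (GroupUn134, a single position at 12145), had 0 paternal of 606 reads, which allows a share of up to 0.495%. GB40100 (Group13.7, position 393462) had 0 maternal of 235 reads, which allows a share of up to 1.28%. Both were chosen after their values were seen, and both limits cover counting error only. GB52717 and GB52762 had the same counts from a shared position, so the 7 genes are 6 independent cases.

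Many called genes kept reads of both parents in every bee. Of 1409 tested genes with at least 10 reads of each parent in every bee, 121 were called, 80 paternal with a median log2 ratio of 0.55 and 41 maternal with a median of -0.80. In 76 and 36 of them, all 7 bees lay on the called side. GB43331 (GroupUn98, 26579 to 29102, 45 positions) had the smallest p among the paternal ones, although only 1001 of its 58179 reads were maternal, so that it also belongs to the calls with less than 5% of a parent. Its paternal reads against maternal reads were 2722 to 26, 1838 to 25 and 2727 to 38 in the active bees. They were 19720 to 409, 27046 to 467, 1326 to 16 and 1799 to 20 in the inactive bees. Its total reads ranged from 1342 to 27513 in a bee, and its D share from 98.0% to 99.1% (mean 98.6% ± 0.372, SD, n = 7; log2 ratio 6.14, SE 0.16, edgeR adjusted p = 4.84e-06). The positions of GB43331 were less alike, with D shares from 74.4% to 100% at its 37 differing positions. Position 28112, which is not among these, had 490 reads and was balanced, with 50.2% D.

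GB49440 (Group15.13, 333222 to 340153, 8 positions) had D shares of 87.8%, 84.7% and 86.5% in the active and 91.4%, 87.1%, 83.9% and 80.3% in the inactive bees. Its log2 ratio was 2.62 (SE 0.16, edgeR adjusted p = 0.0002), and its differing positions lay between 70.6% and 88.4%. GB52493 was read at a single position (Group2.17, 1058742). Its D shares were 19.6%, 21.6% and 17.0% in the active and 18.3%, 18.3%, 19.0% and 21.0% in the inactive bees. Maternal reads thus exceeded paternal reads about 4-fold in each bee (log2 ratio -2.07, SE 0.06, edgeR adjusted p = 4.84e-06). GB50931, also read at 1 position (Group10.26, 1834240), had D shares of 23.0%, 27.1% and 27.5% in the active and 25.6%, 27.0%, 21.8% and 22.5% in the inactive bees (log2 ratio -1.60, SE 0.07, edgeR adjusted p = 5.37e-05). Active and inactive bees overlapped in all 4 genes.

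**Figure D3:**
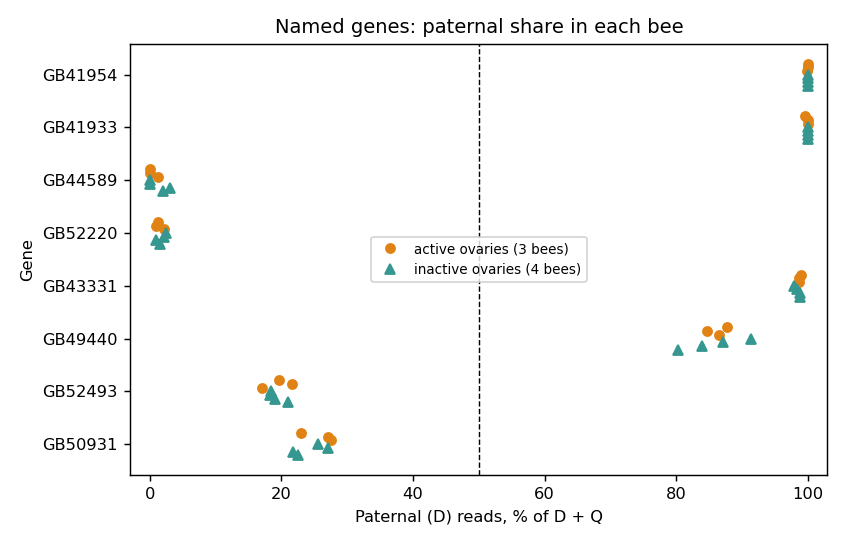
Paternal (D) share of reads of 8 named genes in each of the 7 bees, orange circles for active and green triangles for inactive ovaries, with a dashed line at 50%. In each gene all 7 bees lie on the same side of the line. They lie near 0% or 100% in GB41954, GB41933, GB44589, GB52220 and GB43331, and between 17.0% and 27.5% in GB52493 and GB50931.

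Large ratios that were not called lay mostly on the paternal side. Among 329 genes with a ratio of at least 2-fold, 194 missed the threshold, and 170 of these had more paternal reads against 24 with more maternal reads. The spread between bees, which itself decides whether a ratio of this size is called, was wide in these genes. The median SD of the D share over bees was 21.2 percentage points in the 170 paternal genes, against 7.78 in paternal calls of at least 2-fold. In 100 of the 170, at least 1 bee had a D share of 95% or more while another lay between 30% and 70% (with at least 10 reads). The same pattern in the maternal direction was seen in 10 of the 24. Only 36 of the 170 and 10 of the 24 had all 7 bees on the same side.

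Missing maternal reads in some bees were counted more strictly. A bee was counted for a gene when it had at least 30 reads with a D share of at least 95% and at least 3 other bees, also with 30 reads, lay between 30% and 70%. Maternal reads were missing in this sense in 51 genes, 28 of them in 1 bee, 10 in 2, 9 in 3 and 4 in 4 bees. By bee the numbers were 10, 12 and 12 genes in the active and 10, 14, 20 and 13 in the inactive bees, out of 1600 to 1857 genes judged in each. The 51 genes showed 26 different sets of bees. Of the 23 genes with 2 or more such bees, 14 had bees of both statuses. Of the 51 genes, 35 rested on 2 or more positions, which are not separate observations, since positions of a gene can hold the same counts. Bees can also differ in which positions of a gene their reads cover. The bees not missing the reads were therefore compared at the positions of the bee that was, weighted by its reads there, a comparison chosen after the data were seen. Their D share lay between 30% and 70% in 84 of the 91 cases and 46 of the 51 genes. GB48203 (GroupUn5, 150204 to 160318) is an example, with paternal and maternal reads of 140 to 109, 169 to 129 and 243 to 4 in the active bees. In the inactive bees they were 70 to 42, 127 to 0, 200 to 1 and 233 to 2. At the positions read in each of the 4 bees that lacked maternal reads, the other 3 bees had D shares between 55.5% and 58.3%. In GB48203 active bees 1 and 2 and inactive bee 1 were thus near balance and the other 4 bees lacked maternal reads (log2 ratio 3.17, SE 1.27, edgeR adjusted p = 0.222).

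Missing paternal reads were rarer and centred on inactive bee 3. By the mirrored definition they were found in 20 genes, 17 of them in inactive bee 3, against 1, 2 and 0 genes in the active and 1, 0 and 0 in the other inactive bees. In these 17 genes inactive bee 3 had 81 paternal reads of 4503, and the mean D share of the other bees had a median of 54.1% (range 32.3% to 76.5%). GB50889 (Group10.26, 2568340 to 2585252, 29 positions) had 412 to 337, 307 to 228 and 898 to 1066 paternal to maternal reads in the active bees. In the inactive bees it had 191 to 121, 323 to 160, 33 to 1201 and 498 to 472, so only inactive bee 3 lacked paternal reads. Its positions are not separate counts, since 2570193, 2574314 and 2575341 each held 215 reads, 42.3% of them paternal. GB42219 (Group1.34, 27334 to 29024) lacked them in inactive bees 1 and 3, with 2 to 129 and 3 to 162 reads. Its other bees held between 30.1% and 46.5% paternal reads, but not at the same positions. At 4 of its 9 positions (28971 to 29024) D was 0.284% of reads over all bees, and at the other 5 it was 49.9%. Of the reads of inactive bee 1, 127 of 131 fell at the former, and of those of inactive bee 3, 119 of 165. Weighted by the positions of these 2 bees, the other bees had 1.68% and 14.2% paternal reads, so GB42219 is not a case of missing paternal reads at like positions. Over all such cases, the other bees were between 30% and 70% D at like positions in 18 of 21, and in 16 of the 17 in inactive bee 3. Among these, GB48845 had 68.1% D in the other bees pooled, although active bees 1 and 2 had 100% D there. The 17 genes lay on 13 scaffolds of 11 linkage groups, none of them unplaced, and 3 scaffolds held more than 1. On these 13 scaffolds 313 tested genes had at least 30 reads in inactive bee 3, and 247 of them were between 30% and 70% D there. None of the 17 was called over the 7 bees. The part of this library in the other results is given by the counts without it.

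**Figure D4:**
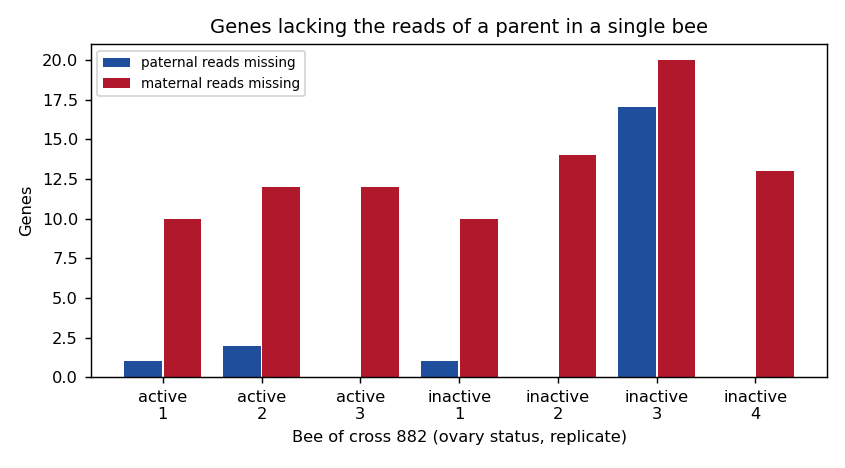
Number of genes lacking the reads of a parent in each bee while at least 3 other bees were near balance; blue bars show missing paternal reads and red bars missing maternal reads. Missing maternal reads were found in 10 to 20 genes in every bee, and 17 genes lacked paternal reads in inactive bee 3 against 0 to 2 in each of the others.

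The bees resembled each other in their ratios, inactive bee 3 the least. Over 1410 genes with at least 30 reads in every bee, log2 ratios of 2 bees had Pearson correlations between 0.47 and 0.71 computed across genes rather than across replicates. The mean correlation with the other bees was 0.55 in inactive bee 3 and between 0.57 and 0.65 in the rest. These values describe genes that share their positions and parental genomes in every library.

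Positions within a called gene mostly pointed the same way. The calls were made on the sums of these positions, which favours the called side, so this is a description. In the 117 paternal calls with 2 or more positions of enough reads, 990 of 1289 positions (76.8%) had more paternal than maternal reads. In 43 such maternal calls, 361 of 426 positions (84.7%) had more maternal reads. All positions lay on the called side in 59 and 27 of these genes. Positions of a gene can repeat the same counts, so their number overstates the separate observations. Nearly equal counts (45% to 55% D) were found at 47.3% and 43.0% of the positions. Positions beyond 60% D and below 40% D in the same gene were found in 7 of the 117 paternal and 2 of the 43 maternal calls. Among genes not called they were found in 100 of 1591, so their absence does not set the calls apart. A single position carried 21 of the 153 paternal calls, 26 of the 77 maternal calls and 549 of the 2582 tested genes. Maternal calls therefore rested on fewer positions (median 3) than paternal calls or tested genes (median 5 each). The reads behind a gene had a median of 1083 for paternal calls, 751 for maternal calls and 921.5 for all tested genes. When genes were ranked by reads into 4 bands, 6.97% were called in the lowest band, with a median size of 2.27 on the log2 scale, and 10.4% in the highest band, with a median size of 0.54.

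Calls were spread over the genome. Each of the 16 linkage groups held calls, from 4.40% of tested genes in group 16 to 12.4% in group 6, with more paternal than maternal calls in 13 groups and the reverse in 2. Groups 12 and 15 were those 2, with 4 paternal and 7 maternal, and 5 paternal and 8 maternal calls. The 103 genes on unplaced scaffolds had 17 paternal and 4 maternal calls (20.4%), against 8.43% of the 2479 placed genes. Neighbouring tested genes were both called in 24 of 2099 pairs that shared no position, with both paternal in 12 pairs, both maternal in 1 and opposite directions in 11. Of called genes with a next tested gene along their scaffold, 13.8% were followed by another call. For comparison, 8.43% of placed genes and 8.91% of all tested genes were called. The most calls on a scaffold were 11, on Group11.18 (6 paternal and 5 maternal of 79 tested genes) and on Group2.19 (7 and 4 of 87). The departure of these counts from an even spread was not tested.

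The study's question joins parental bias with ovary activation, and each status was also fitted alone. In the 3 active bees none of 2377 genes was called (0%; edgeR, smallest adjusted p = 0.0626), while 300 had an unadjusted p under 0.05, 224 of them paternal. With TMM scaling 39 genes were called in the active bees, and at differing positions 46 were. In the 4 inactive bees 66 of 2608 genes were called (2.53%), 41 paternal and 25 maternal, with 334 at an unadjusted p under 0.05. That count did not hold when a bee was left out. It was 0 without inactive bee 1, 2 or 4 and 9 without inactive bee 3. Of the 66 genes, 59 were also called over all 7 bees.

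The genes called in the inactive bees included GB43226 (Group11.20, position 791838), with 53, 21, 69 and 190 paternal reads and 0, 0, 1 and 0 maternal reads in inactive bees 1 to 4 (edgeR adjusted p = 0.0366). Its only position is listed for another gene too, so the gene behind the reads is uncertain. GB42956 (Group6.28, 127896 to 255768), with 19 of its 28 positions listed for another gene too, had D shares of 98.6%, 98.8%, 99.6% and 99.6% in the inactive bees (edgeR adjusted p = 0.0265). Of its 16544 reads, 16460 fell at those 19 positions. The 9 positions listed for GB42956 alone had 84 reads, 64.3% of them paternal, with shares from 33.3% to 100% in a bee, so the bias is not shown for GB42956 itself. Its active bees are not set beside the inactive ones, since most reads fell at positions found in only 1 of the 2 tables. GB43376 (Group2.13, 296405 to 296415) had 0, 1, 0 and 1 paternal reads of 22, 33, 80 and 69 in the inactive bees (edgeR adjusted p = 0.0401). GB55263 (Group1.27, 369493 to 370372) had D shares of 4.05%, 4.69%, 2.49% and 6.67% there (edgeR adjusted p = 0.024), and 0%, 0% and 5.38% in the active bees. Those active shares rested on 15, 24 and 651 reads. Its 2 positions pointed opposite ways, with 90.3% D of 31 reads at 369493 and 2.49% of 1405 reads at 370372. None of these 4 passed the threshold when any inactive bee was left out (adjusted p from 0.0669 to 0.374), and each kept its direction.

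The direction of bias was compared between active and inactive ovaries in the genes called over the 7 bees. Of the 230 calls, 205 could be fitted in both statuses, and all 205 had the same direction in both. The same bees had chosen these genes, so this is a description. The median size was 1.15 on the log2 scale in the active and 1.09 in the inactive bees. The test of the difference, over positions in both tables, called 2 of 2412 genes (0.0829%). An unadjusted p under 0.05 was found in 68 genes, fewer than the 120.6 expected with no difference in any gene. Among the 223 parental calls in this test, 7 had an unadjusted p under 0.05, a share near that of all genes in it (68 of 2412). The median absolute difference of these calls was 0.25 on the log2 scale, with a median standard error of 0.33. Over all tested genes the median absolute difference was 0.12.

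In GB56018 maternal reads were nearly missing with inactive ovaries only. It was read at a single position (Group3.1, 514703). Paternal and maternal reads were 92 to 68, 64 to 52 and 186 to 147 in the active bees and 161 to 4, 123 to 5, 297 to 12 and 392 to 18 in the inactive bees. The D share was thus 56.2% ± 1.20 (SD, n = 3) in the active bees and 96.3% ± 0.851 (SD, n = 4) in the inactive bees, and the groups did not overlap. The difference in log2 ratio was -4.33 (SE 0.19, edgeR adjusted p = 0.0023). It was as large without active bee 3 (-4.32) but narrowly missed the threshold there (edgeR adjusted p = 0.0521). Total counts of GB56018 did not pass the test for ovary status (edgeR adjusted p = 0.263). It was 1 of the 4 genes lacking maternal reads in 4 bees, and the only one of the 51 in which all inactive and no active bees did so. Daughters of a queen may carry different maternal alleles, so ovary status and the inherited maternal allele cannot be told apart here. The p-value describes the spread of ratios between bees, not which bees lack the reads. A single gene of the 51, GB53180, showed the opposite split, with maternal reads missing in all active and no inactive bees. At the positions of those active bees the inactive bees had D shares between 83.4% and 85.6%, outside the balanced range. GB53180 was chosen after its values were seen.

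GB43774 (Group14.7, position 221480) had fewer reads, between 11 and 74 in a bee. Its D share was 77.0%, 72.2% and 74.5% in the active and 46.7%, 54.5%, 46.4% and 50% in the inactive bees. The groups did not overlap, and the difference in log2 ratio was 1.63 (SE 0.14, edgeR adjusted p = 0.0463). It missed the threshold under 11 of 12 alternatives, with adjusted p from 0.0704 to 0.506 and differences from 1.52 to 1.70, and passed it with 1 position per gene. Ovary status and the inherited maternal allele cannot be told apart in GB43774 either.

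**Figure D5:**
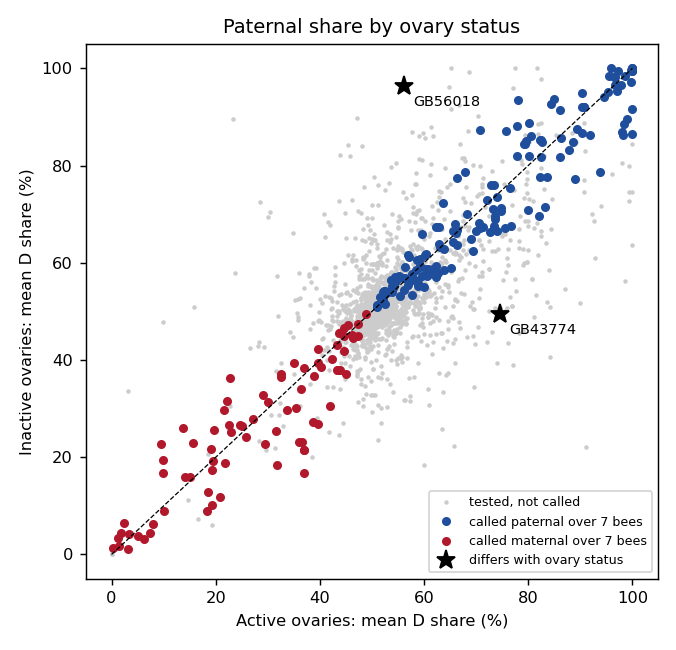
Mean paternal (D) share in the 3 active bees (horizontal) against the 4 inactive bees (vertical) for genes with kept positions in both tables, over bees with at least 10 reads of the gene; blue and red points are the paternal and maternal calls over 7 bees, grey points are other tested genes, stars are the 2 genes called for a difference, and the dashed line marks equal shares. Called genes lie near the line, while GB56018 stands at 56.2% and 96.3% and GB43774 at 74.6% and 49.4%.

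Total expression of genes with unequal parental reads was set beside that of the others, with no test. The median level over the 7 bees was 44.0 CPM for paternal calls (quartiles 16.8 and 158), 61.6 CPM for maternal calls (18.2 and 120) and 41.0 CPM for the other tested genes (16.0 and 94.6), in counts per 1000000 counts with TMM scaling. The expression of 901 of 12829 genes differed with ovary status in these 7 bees (7.02%; edgeR), 663 higher and 238 lower with active ovaries. Among paternal calls 4 of 153 were in that list (2.61%), among maternal calls 6 of 77 (7.79%) and among other tested genes 191 of 2349 (8.13%). The maternal share is near the share of all genes. The lower share of paternal calls was not tested, since genes are not independent.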

How the data were processed

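RNA of single bees was sequenced, and the deposited tables hold counts: reads per gene and library, and D and Q reads per position and library, as made by the authors. The submitters' processing notes name TopHat and edgeR, with no version. For genome build, annotation and the rule that made a read D or Q, the sources used here give nothing.

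D and Q counts of the cross were summed per gene and bee over positions of both tables with D unlike Q in at least 1 bee. A read over several positions may be counted more than once, so intervals and limits cover counting error only and may be too narrow. Positions far apart in a gene could also hold the same counts, as in GB50889. edgeR 4.0.16 (R 4.3.3) fitted the 14 columns with a block per bee, a parent term and 1 library size for both columns of a bee, for genes reaching 10 reads in 5 or more bees. D and Q of a bee are thus paired. Active bees needed 10 reads in all 3, inactive bees in at least 3. The difference between statuses was the interaction term, over positions in both tables and genes with 10 reads in at least 2 active and 3 inactive bees. p-values were adjusted by Benjamini-Hochberg over all genes tested, with a threshold of 0.05. Standard errors came from the log2 ratio and the F statistic. Alternatives used limma 3.58.1 (pseudocount 0.5), DESeq2 1.42.0, other scalings, filters and positions, and left out each bee. The code was tested on simulated data.

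At most 2 identifiers per direction and comparison were named. These were calls with all bees on the same side of 50% and the largest log2 ratio (500 reads or more, or 200 within a status), or the smallest p for partial bias and for the difference. For missing reads, the genes missing them in most bees were named, ties going to the most reads. None of 15314 identifiers matched the 12398 genes of the RefSeq table (Amel_HAv3.1), so no gene lists or markers were used. The members, rules and tests were chosen with earlier results of these data known. The labels do not say whether the bees are sisters, and p-values describe the spread between these bees.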

Additional observations from a re-analysis of the deposited data

Results flagged for a closer look

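Inactive bee 3 lacked paternal reads in 17 genes that were near balance in at least 3 other bees, while the other inactive bees did so in 1, 0 and 0 genes. In 16 of the 17 the bees not missing the reads were between 30% and 70% D at the positions inactive bee 3 was read at. The gap to the nearest bee set it apart among the 4 inactive bees. The D share of GB43226 was 98.6% in inactive bee 3, where its only maternal read was found, and 100% in the other inactive bees. In all, 21 values were examined for such gaps, and chance flags about 1 in 20 groups.

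The test of the difference between ovary statuses called 2 genes, GB56018 and GB43774, each read at a single position. At positions outside genes, which no comparison above used, the D share was 53.9% ± 1.11 (SD, n = 7), from 52.1% to 55.4%, and lay above 50% in 7 of 7 bees.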

How the results depend on the processing

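The count of 230 calls (153 paternal, 77 maternal) became 362 (271 paternal) with the DESeq2 test, 488 (345 maternal) with DESeq2 size factors and 138 maternal with TMM scaling. Leaving out each bee in turn gave 136 to 212 calls, 86 to 150 paternal and 50 to 66 maternal, the lowest of each without active bee 3. Other filters, limma and other choices of positions kept the counts within 1.5 times, as at differing positions (201 paternal, 87 maternal). The causes were not tested.

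In active bees the count of 0 became 39 (28 paternal, 11 maternal) with TMM scaling and 46 (37 and 9) at differing positions, and stayed at 0 to 0 without each bee. In inactive bees 66 calls became 27 (15 and 12) over every position, 62 paternal at differing positions and 40 maternal with TMM scaling. Leaving out an inactive bee gave 0 to 9 calls, 0 to 7 paternal and 0 to 2 maternal. The 2 calls for a difference became 1 with TMM scaling, limma, differing positions or no filter, and 0 to 1 without each bee. The D share of a bee was 50.1% over the median gene, where the sign-flip test could not pass because several bees lay at 50%. The value without inactive bee 3 and the comparison of missing reads at like positions were chosen after seeing the data.

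GB44589, GB52220, GB43331, GB49440, GB52493 and GB50931 passed under all 18 alternatives, GB41954 under 17 and GB41933 under 16. None of the 14 genes refitted under the alternatives changed direction; genes named for missing reads alone or for 0 reads of a parent were not refitted. Genes with few reads and 1 position limit what 7 bees can show, and a ratio is pulled towards equality by positions with equal counts.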
